A study of Mus musculus with 12 samples.

Results

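Hemgn and 5 genes known for their role in red cells (Alas2, Slc4a1, Epb42, Ahsp and Hba-a1) were followed in whole mouse ear. Members were the probe sets whose array annotation names only 1 of these genes, and 8 of 45101 probe sets met that rule. Hemgn and Alas2 have 1 probe set each, Slc4a1 has 3, Epb42 has 2 and Hba-a1 has 1, while Ahsp was not analysed here. The genes were chosen by the low Hemgn values of the mutant in these same arrays, so the genotype difference of Hemgn is described without a test. The groups were Spade/Spade ears and ears of wild-type littermates, each at 2, 4 and 6 weeks of age, with 2 arrays per group and 12 in all. Spade is known from its publication as an activating mutation in Jak1, a kinase that passes signals from many cytokine receptors to STAT transcription factors. The allele is carried by every cell of the mouse, and the labels do not say whether an array holds RNA of 1 animal or of a pool. Because sample numbers are not tied to animals, each p-value reflects spread among these samples alone, which may be technical.

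Values are log2 GCRMA values, a normalized hybridisation signal per probe set, with a floor of 2.14 on every array and a maximum of 16.6. MAS5, a second algorithm, calls each probe set present or absent on each array, and called 52.3% to 58.1% of probe sets present. The keratins Krt5, Krt14 and Krt10, which mark the epidermis of the labelled tissue, averaged between 15.1 and 16.1. A gene was tested with limma where its value reached 4 on at least 2 arrays, which held for 11984 of 18194 genes. Of the 5 members with a probe set, 2 passed this filter, Hemgn and Alas2. Slc4a1, Epb42 and Hba-a1 did not.

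Red cells arise from progenitors in bone marrow, and in mice also in spleen, under erythropoietin, whose receptor signals through the kinase Jak2. As precursors mature they make large amounts of globin and haem, build a membrane skeleton and lose the nucleus. Young red cells in the circulation still carry globin mRNA for a time, so that whole tissue with blood in its vessels yields globin signal. Hemgn encodes hemogen, a nuclear protein of blood progenitors and erythroid precursors that is known to act with the transcription factor GATA1. Alas2 is the erythroid form of the first enzyme of haem synthesis. Slc4a1 encodes band 3, the anion exchanger of the red cell membrane, and Epb42 encodes protein 4.2, which binds band 3 to the skeleton. Hba-a1 is an adult alpha-globin gene, and Ahsp encodes a chaperone of free alpha-globin. In bulk tissue, fewer cells of a type and less RNA per cell cannot be told apart.

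The regions around the start sites are shown because GATA1 and the erythroid factor KLF1 are known to bind short DNA motifs near such genes, while the arrays measure only RNA. Each sequence below is from RefSeq on GRCm38.p6, runs 5′ to 3′ on the strand of the gene, and spans 250 bases before to 50 bases after the annotated start. Capitals mark 2 kinds of motif, searched on both strands. The GATA motifs are AGATAA and TGATAA, each also counted with G as its final letter, and the other motif is CACCC. Of the members with a probe set, 3 are printed, Hemgn at chr4:46404134-46404433 on the minus strand, Alas2 at chrX:150547167-150547466 on the plus strand and Hba-a1 at chr11:32283422-32283721 on the plus strand.
Hemgn: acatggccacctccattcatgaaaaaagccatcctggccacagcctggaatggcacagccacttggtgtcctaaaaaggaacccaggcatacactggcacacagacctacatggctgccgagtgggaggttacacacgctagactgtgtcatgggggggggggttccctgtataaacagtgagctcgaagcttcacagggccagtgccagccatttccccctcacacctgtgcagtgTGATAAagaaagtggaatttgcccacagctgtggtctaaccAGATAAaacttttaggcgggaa
Alas2: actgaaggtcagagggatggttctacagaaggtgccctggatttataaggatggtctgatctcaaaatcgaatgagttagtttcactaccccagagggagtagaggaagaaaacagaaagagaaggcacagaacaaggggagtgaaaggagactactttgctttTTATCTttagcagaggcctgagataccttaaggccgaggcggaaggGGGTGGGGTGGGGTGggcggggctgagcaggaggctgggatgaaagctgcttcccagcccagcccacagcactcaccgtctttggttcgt
Hba-a1: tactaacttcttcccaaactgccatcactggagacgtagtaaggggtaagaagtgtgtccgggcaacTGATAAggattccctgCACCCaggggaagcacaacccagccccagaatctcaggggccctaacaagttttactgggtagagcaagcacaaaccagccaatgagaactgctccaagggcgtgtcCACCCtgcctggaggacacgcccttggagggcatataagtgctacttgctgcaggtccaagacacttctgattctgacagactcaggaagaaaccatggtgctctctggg
The Hemgn window holds 2 GATA motifs, whose first bases lie at -13 and 29 from the start, and 0 copies of CACCC. The Alas2 window holds 1 GATA motif at -86 and 3 copies of CACCC at -40, -35 and -30, all on the opposite strand. In the Hba-a1 window a GATA motif lies at -183, and copies of CACCC lie at -167 and -60. No marked motifs overlap. The genes themselves lie at chr4:46393989-46404183 (Hemgn), chrX:150547417-150570622 (Alas2), chr11:102348820-102365281 (Slc4a1), chr2:121017891-121036877 (Epb42) and chr11:32283672-32284486 (Hba-a1) in the same build. Of 32851 RefSeq promoter windows of this length, 29.8% hold a GATA motif, 57.5% hold CACCC and 14.9% hold both, so these matches describe the letters and identify no binding site.

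Hemgn was lower in the mutant at each age. At 2 weeks its log2 value was 4.69 and 4.12 in Spade/Spade ears, against 6.68 and 5.79 in wild-type ears. The 4-week mutants had 5.47 and 4.68, against 6.29 and 6.12 in wild type. At 6 weeks the values were 4.33 and 3.79 in the mutant and 5.59 and 5.72 in wild type. Both mutants thus lay below both wild types at every age. MAS5 called Hemgn present on all 12 arrays, but it was dim, and its lowest value of 3.79 lay below the level of 4 used for testing. The difference was -1.84 ± 0.38 on the log2 scale at 2 weeks, -1.13 ± 0.38 at 4 weeks and -1.60 ± 0.38 at 6 weeks (SE of the fit, 2 arrays per group). Averaged over ages it was -1.52 ± 0.22, which is 2.87-fold lower in the mutant.

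These values chose the gene. Hemgn ranked 2 by size among the 13 genes that limma called lower in the mutant on average over ages (0.108% of those tested), a count from which nothing is read about Hemgn. Among all tested genes, 2.08% had both mutants below both wild types at all 3 ages. MAS5 signals, a linear intensity, gave a smaller log2 difference of -0.93 on average, with signals under 50 raised to 50. This floor raised 1 Hemgn signal, the 44.5 of 6-week mutant replicate 3, which makes the difference somewhat smaller. On the MAS5 scale both mutants were also below both wild types at each age. The margin was narrowest at 4 weeks, with signals of 145.6 and 72.4 in the mutant and 147.6 and 184.8 in wild type. Across ages the signals overlapped, since the 145.6 of 4-week mutant replicate 1 lay above 2-week wild-type replicate 2, at 116.3. Arrays carry numbers in the labels that fall into 3 ranges, and the 2-week arrays all share 1 range, so that age and range cannot be told apart there. Against the 1 wild-type array in the same range as both mutants, the Hemgn difference was -1.21 at 4 weeks and -1.66 at 6 weeks.

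Over age, no change of Hemgn passed in limma, where 2.36% of genes were called lower at 6 than at 2 weeks in the mutant and 1.51% in wild type. In Spade/Spade ears the 6-week level minus the 2-week level was -0.35 ± 0.38 (adjusted p = 0.574), and minus the 4-week level it was -1.02 ± 0.38 (adjusted p = 1). In wild-type ears the 6-week level minus the 2-week level was -0.58 ± 0.38 (adjusted p = 0.379). The genotype difference at 6 weeks minus that at 2 weeks was 0.24 ± 0.54.

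**Figure D1:**
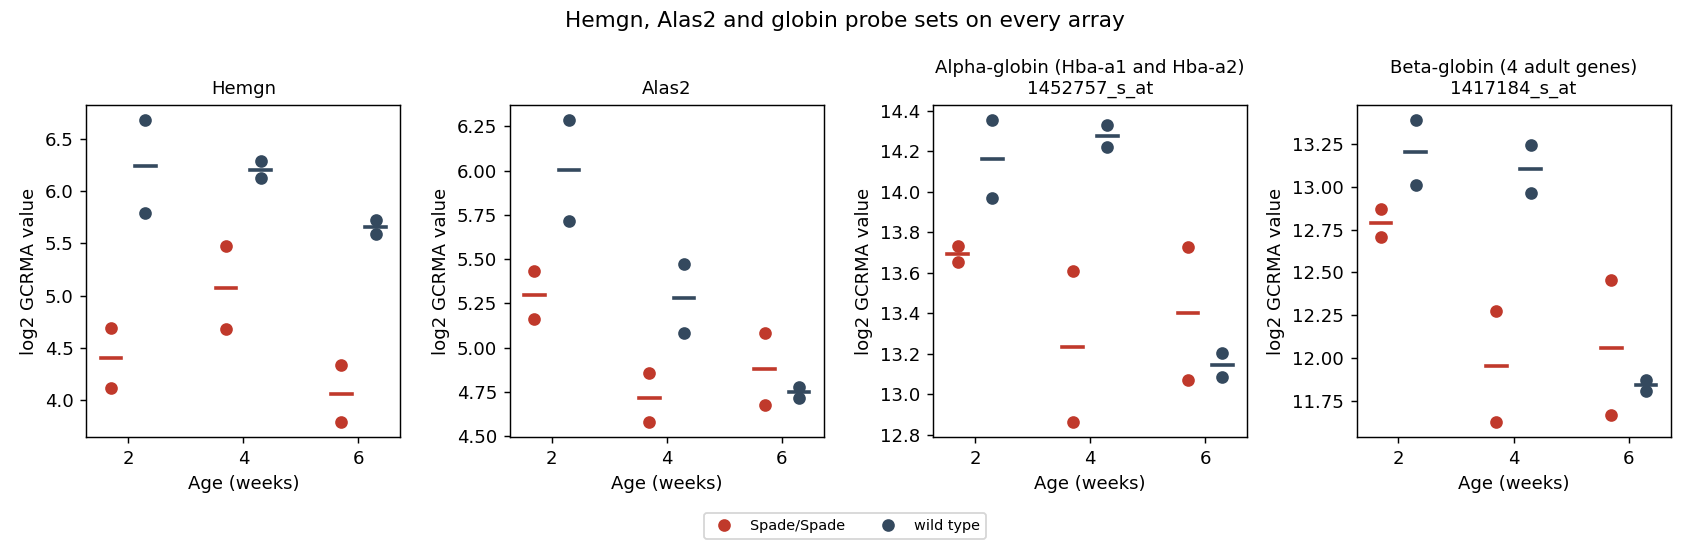
Log2 GCRMA values of Hemgn, Alas2, 1 alpha-globin and 1 beta-globin probe set on the y axes against age in weeks, with Spade/Spade arrays in red on the left of each pair and wild-type arrays in dark blue; points are single arrays and bars are means of 2, and the y axes do not start at 0. Hemgn is lower in the mutants at all 3 ages, whereas both globin probe sets are lower at 2 and 4 weeks and overlap at 6 weeks.

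Alas2 did not pass the test of genotype, and its signal was near the detection limit. Its MAS5 signals ran from 47.3 to 265.8, beside 44.5 to 191.2 for Hemgn. At 2 weeks the mutants had 5.43 and 5.16, against 6.29 and 5.72 in wild type. The 4-week values were 4.86 and 4.58 in the mutant and 5.08 and 5.48 in wild type, and the 6-week values were 5.08 and 4.68 in the mutant and 4.78 and 4.72 in wild type. Mutant arrays lay below wild-type arrays at 2 and 4 weeks, as they did for 5.3% of tested genes, and overlapped with them at 6 weeks. MAS5 called Alas2 present on 1 of 6 mutant arrays and 2 of 6 wild-type arrays, all at 2 weeks. No genotype difference is therefore read at 4 or 6 weeks alone, and values below that use these ages rest partly on absent calls. At 2 weeks the difference was -0.71 ± 0.27 (limma adjusted p = 0.591). It was -0.26 on MAS5 signals, -0.42 without 2-week wild-type replicate 1 and -0.99 without replicate 2, and passed in none of these. Averaged over ages it was -0.38 ± 0.15 (adjusted p = 0.300), beside 0.643% of genes called in either direction. In wild-type ears Alas2 fell by 1.25 ± 0.27 on the log2 scale at 6 weeks relative to 2 weeks (adjusted p = 0.0363), with the 6-week arrays absent by MAS5. This call held in 10 of 21 alternative settings, with adjusted p from 0.0222 to 0.210. It was lost on MAS5 signals, with no filter, with array number range as a block, and without any 1 of 8 arrays, which were both 2-week wild types, both 4-week mutants and all 4 arrays of 6 weeks. All 2-week arrays share 1 number range that holds no 6-week array, so age and range cannot be told apart in this comparison. The block cannot separate them either. The value was -0.97 without 2-week wild-type replicate 1 and -1.54 without replicate 2. The same comparison in the mutant was -0.42 ± 0.27 (adjusted p = 0.326), and the difference between the genotype effects at 6 and 2 weeks was 0.84 ± 0.38 (adjusted p = 0.838).

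Slc4a1 was high on 1 array and low on the rest. Its probe set 1434502_x_at read 6.97 on 2-week mutant replicate 3, 3.62 on 2-week wild-type replicate 2 and between 2.40 and 2.78 on the other 10 arrays. Probe set 1416464_at read 4.71 on the same mutant array and between 2.31 and 2.77 elsewhere, while 1431743_a_at lay at the floor on all 12. The other 2-week mutant array, replicate 2, had 2.78 and 2.47 on these probe sets. MAS5 called 1434502_x_at present on 1 mutant and 3 wild-type arrays and 1416464_at on that 1 mutant array. That mutant array, replicate 3, also stood apart in hair follicle keratins, with Krt71 at 14.4 and Krt25 at 15.2. The other 2-week mutant had 7.66 and 9.81, and the 2-week wild types had 7.65 to 8.45 and 9.64 to 10.4. Whether the hair follicle signal has a part in the Slc4a1 value was not tested. In the fit with no filter on low values, Slc4a1 differed by 0.58 ± 0.68 on average over ages (adjusted p = 0.783), a value that rests on that array. Epb42 read between 2.14 and 2.19 on every array in both probe sets, and the probe set naming only Hba-a1 read between 2.14 and 2.39 and was called absent on all 12. No difference was detectable for Epb42 or for this Hba-a1 probe set at this signal.

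**Figure D2:**
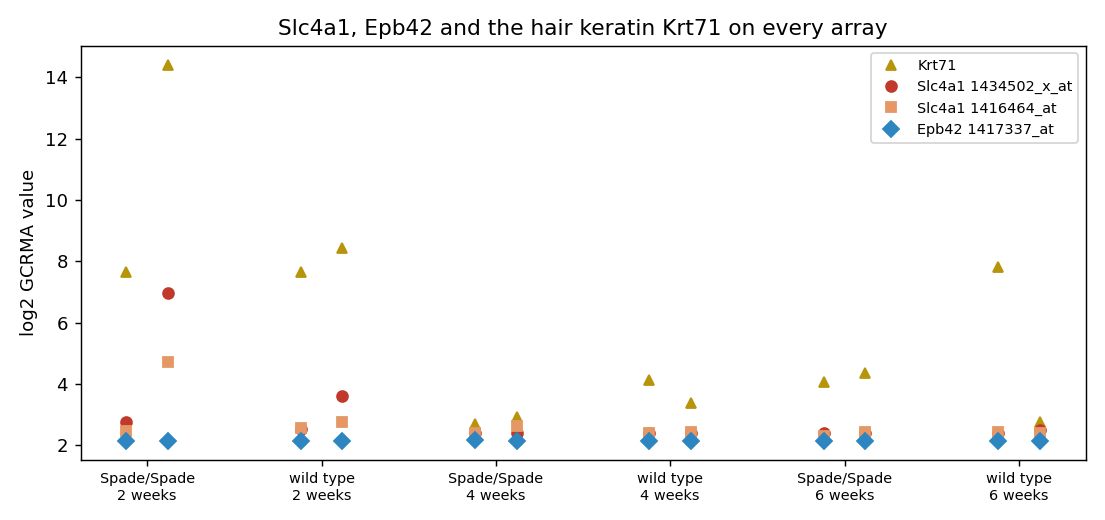
Log2 GCRMA values of 2 Slc4a1 probe sets, 1 Epb42 probe set and the hair follicle keratin Krt71 on the y axis, for the 2 arrays of each group along the x axis, Spade/Spade left of wild type at each age. Slc4a1 and Krt71 are both highest on 1 of the 2-week mutant arrays, at 6.97 and 14.4, and Epb42 stays near the floor of 2.14.

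Alpha-globin was instead measured by 3 probe sets that name both Hba-a1 and Hba-a2, and beta-globin by 1 that names 4 adult beta-globin genes. They are not members, and were added after their values were known. All 4 were called present on all 12 arrays. For 1452757_s_at, an alpha-globin probe set, the 2-week values were 13.73 and 13.65 in the mutant and 14.35 and 13.97 in wild type. At 4 weeks they were 13.61 and 12.86 in the mutant, against 14.33 and 14.22 in wild type. The 6-week mutants had 13.73 and 13.07, and the wild types had 13.09 and 13.20. Alpha-globin was thus lower in the mutant arrays at the first 2 ages, while at 6 weeks 1 mutant array lay above both wild types and the other below both. The beta-globin probe set 1417184_s_at, which reads the other chain of haemoglobin, gave 12.87 and 12.70 in 2-week mutants, against 13.39 and 13.01 in wild type. Its 4-week values were 12.28 and 11.63 in the mutant and 13.24 and 12.96 in wild type, and at 6 weeks 12.45 and 11.67 in the mutant and 11.87 and 11.81 in wild type. Its arrays fell in the same order of groups at each age, again with the 6-week wild types between the mutants.

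In all 4 globin probe sets both mutants lay below both wild types at 2 and at 4 weeks, as did 5.73% of all 22289 probe sets tested. None of the 4 genotype averages passed in limma, with differences from -0.63 to -0.35 and adjusted p from 0.158 to 0.338, where 0.193% of probe sets were called in either direction. At 4 weeks the differences were -1.28, -0.98, -1.04 and -1.15 on the log2 scale (adjusted p = 1 each). At 6 weeks they were positive, from 0.22 to 0.41, and did not pass, where 0.00897% of probe sets were called. In 1428361_x_at both 6-week mutants (13.64 and 13.08) lay above both wild types (12.88 and 13.03), and 1.37% of probe sets were below at 4 weeks and above at 6 weeks in this way. The globin differences at 6 weeks minus those at 4 weeks were 1.30 to 1.50, with an adjusted p of 1 in each. Against the same-range wild-type array the genotype differences were -1.29 to -1.07 at 4 weeks and 0.018 to 0.33 at 6 weeks. At 6 weeks relative to 2 weeks, wild-type ears had lower values in 2 of the 4 by the test, at -1.21 for 1417714_x_at (adjusted p = 0.0394) and -1.36 for 1417184_s_at (adjusted p = 0.0283). The other 2 stood at -0.89 and -1.02 for 1428361_x_at and 1452757_s_at (adjusted p = 0.0645 and 0.0541), and 3.87% of probe sets were called lower there. The value of 1452757_s_at passed in 7 of 20 alternative settings, with adjusted p from 0.0419 to 0.277 over all 20, and that of 1428361_x_at in 0. Both calls were lost with no filter, with the range block and without any 1 of the 2-week or 6-week wild types, and that of 1417714_x_at also on MAS5 signals and without either 4-week wild type. Without 2-week wild-type replicate 1 the values were -0.98 and -1.17. No 6-week array shares the number range of the 2-week arrays, so age and range cannot be told apart here, and the block cannot separate them. In the mutant the same comparison gave -0.72 to -0.16 in 3 of the 4 and no difference at 2 decimals in 1428361_x_at, passing in none, while 3.44% of probe sets were called lower. Probe sets of the embryonic globins Hbb-y, Hbb-bh1 and Hba-x, which are known from primitive red cells, lay between 2.14 and 2.24 and were absent by MAS5 on all arrays.

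**Figure D3:**
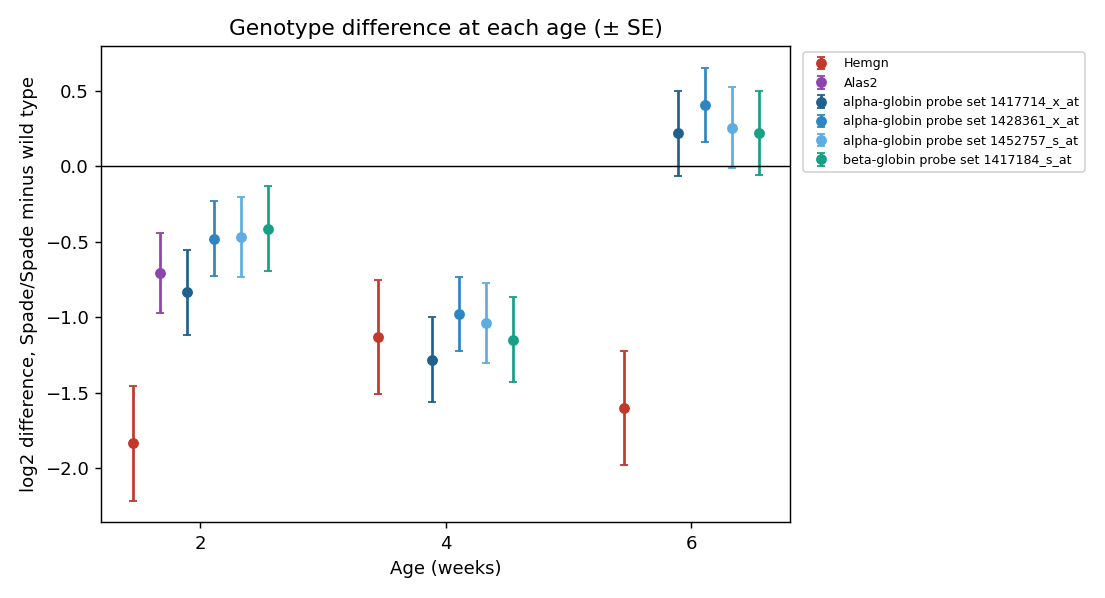
Log2 difference between Spade/Spade and wild-type ears on the y axis, with the standard error of the fit, against age in weeks, for Hemgn, Alas2 and 4 globin probe sets; Alas2 is drawn only at 2 weeks because MAS5 called it absent on all arrays of the later ages. Hemgn is negative at all ages, from -1.84 to -1.13, while the globin values are negative at 2 and 4 weeks and positive at 6 weeks.

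Within groups, where genotype and age are shared, the array with more Hemgn signal was compared with its partner. It also had the higher value in 6 of 6 groups for the alpha-globin probe sets 1428361_x_at and 1452757_s_at, in 5 for 1417714_x_at and in 5 for beta-globin, and in 4 for Alas2. Of all 22289 tested probe sets, 3.3% were higher on these arrays in 6 of 6 groups, 16.2% in at least 5 and 39.4% in at least 4. On MAS5 signals, against the same partner, the counts were 6, 6, 4, 5 and 4, and Hemgn's own order held in 4 groups. Differences between partners ranged from 0.13 to 0.89 for Hemgn and from 0.08 to 0.75 for 1452757_s_at. Across all 12 arrays Pearson's r with Hemgn was 0.52 for Alas2, 0.58 to 0.68 for the 3 alpha-globin probe sets and 0.54 for beta-globin. These are descriptions, since arrays of a group share genotype and age. The order of the groups was not the same for both genes. The 6-week wild-type ears averaged 5.66 in Hemgn, above all 3 mutant groups (4.06 to 5.07), while in 1452757_s_at they averaged 13.1, below each mutant group (13.2 to 13.7).

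**Figure D4:**
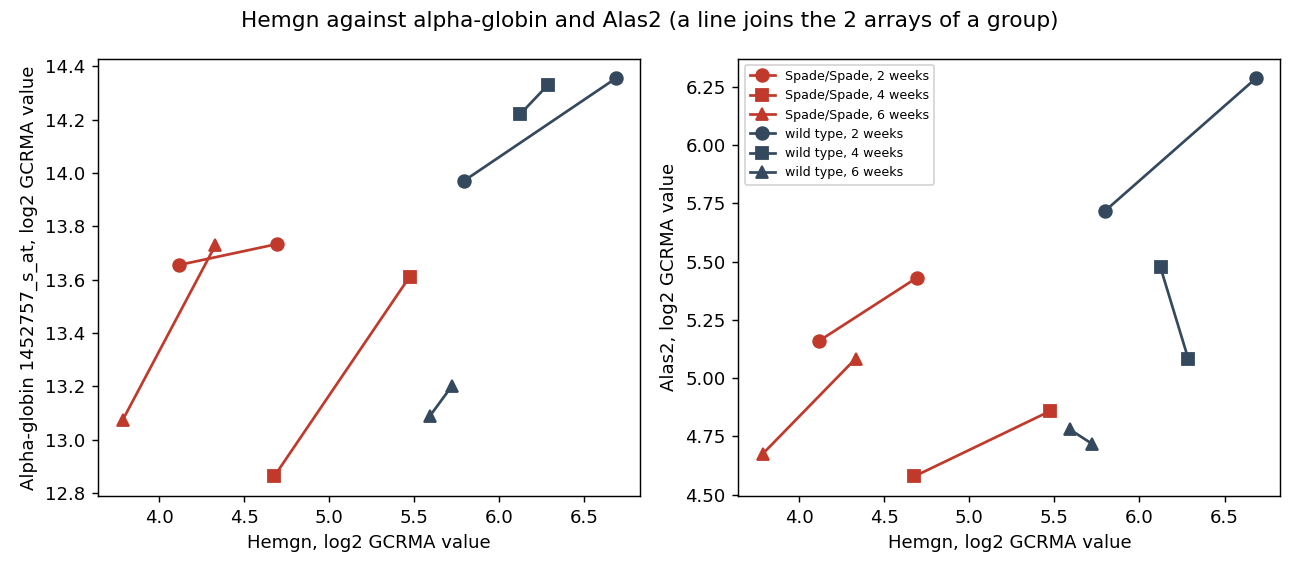
Hemgn on the x axes against alpha-globin probe set 1452757_s_at (left) and Alas2 (right) on the y axes, all as log2 GCRMA values, with 1 point per array and a line between the 2 arrays of a group. Lines rise to the right in 6 of 6 groups for alpha-globin and in 4 of 6 for Alas2, while the 6-week wild types lie low in alpha-globin at intermediate Hemgn.

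Genes of the wider red cell programme were counted from 6 lists. Of 109 distinct genes, 93 had a probe set of their own and 66 were tested. Hemgn is among them and, having been chosen on these values, supports nothing there. Apart from Hemgn, limma called 1 gene higher and 0 lower, beside 0.534% of all tested genes called higher and 0.108% lower. With Hemgn included, differences were positive for 33 and negative for 33, with a median of -0.01. Over all tested genes 5082 were positive and 6902 negative, with a median of -0.03. The gene called higher was Spi1, the PU.1 factor of myeloid cells, at 0.94 ± 0.11 (1.92-fold, adjusted p = 0.0195). Its mutant values ran from 7.94 to 8.53 and its wild-type values from 6.82 to 7.74. The call was lost without either 2-week wild type, 4-week wild-type replicate 3 or any 1 of the 6-week arrays, with differences of 0.87 to 1.00 and adjusted p from 0.0527 to 0.103. Spi1 was placed in the erythropoietin receptor signalling list, but as a factor of myeloid cells it is not read as a red cell gene. Of 11 genes tested in that list, Ptpn6, a phosphatase of blood cell receptors, was at 0.37 without passing. Cish, a feedback inhibitor of cytokine signalling, was at 0.26 and did not pass.

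Haem synthesis and iron supply had 18 tested genes and 0 called, with a median of -0.03. Tfr2, a transferrin receptor of liver and erythroid precursors, was at -1.06 ± 0.22 (adjusted p = 0.0798), with mutant values of 3.01 to 4.72 and wild-type values of 4.32 to 5.39. Steap3, a ferrireductase that releases iron from transferrin, was at 0.46 ± 0.29. Of the membrane and skeleton genes, 8 of 23 were tested and 0 called, with a median of -0.14, and Sptb, the erythroid beta-spectrin, was at -0.61 ± 0.20 (adjusted p = 0.217). The actin cap gene Tmod1 was at -0.31 ± 0.25. Hemgn, Tfr2 and Sptb were the 3 of 66 genes with both mutants below both wild types at all 3 ages, as had 2.08% of all tested genes, and Hemgn was chosen for being low.

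Among 16 tested genes of the erythroid transcription factor list, Hemgn included, the median was 0.24, and apart from Hemgn 0 were called. The list also holds factors of other blood cells, so this median does not describe red cells alone. Lyl1, a helix-loop-helix factor of blood progenitors, was at 0.65 ± 0.17 (adjusted p = 0.138) and Ikzf1, the lymphoid factor Ikaros, at 0.56 ± 0.12 (adjusted p = 0.0917). Gata1 read 2.46 to 2.94, was called present by MAS5 on 10 of 12 arrays and was below the level for testing, and Klf1 lay at the floor and was absent by MAS5 on all arrays. Of 13 tested genes of late maturation 0 were called, with Fech, the last enzyme of haem synthesis, at -0.42 ± 0.14 and Cat, which encodes catalase, at -0.26 ± 0.08. Of the globin list 1 gene was tested, Hbb-b2, at -0.03 ± 0.14. Its own probe set was dim, at 4.16 to 5.17, and was called present by MAS5 on 5 of 12 arrays. The bright probe set 1417184_s_at, which also names Hbb-b2, was at -0.45 ± 0.16 on average (limma adjusted p = 0.291).

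Other blood and vessel markers were listed beside these. Of all tested genes 0.643% were called in either direction, so counts of 0 in lists of this size, here and above, say little. For haemoglobin clearance 0 of 11 were called, with a median of 0.14. Cd163, the macrophage receptor for haemoglobin bound to haptoglobin, was at 0.63 ± 0.13 (adjusted p = 0.0886) and Hmox1, a haem oxygenase, at 0.58 ± 0.22. For platelets 0 of 5 were called, with a median of 0.30, and Pf4 and Pdzk1ip1 were at 0.61 ± 0.13 and 0.52 ± 0.16. Platelet markers averaged 4.44 to 4.70 on mutant arrays and 4.35 to 4.55 on wild-type arrays. This mean is over the 14 markers with a probe set, and all but the 5 tested read 2.41 or lower on every array. For progenitors 0 of 10 were called, with a median of 0.12, and Mecom and Flt3 were at -0.53 ± 0.15 and 0.49 ± 0.20. Vessel markers averaged 7.73 to 8.27 in the mutant and 7.41 to 8.40 in wild type, with 0 of 19 called, Gpihbp1 at -0.90 ± 0.31 and Plvap at 0.76 ± 0.14 (adjusted p = 0.0527). Ear tissue markers averaged 11.8 to 12.5 in the mutant and 11.9 to 12.4 in wild type, with 0 of 18 called, Krt25 at 0.68 ± 1.24 and the muscle creatine kinase Ckm at -0.64 ± 0.36. Their part in the Hemgn difference was not tested.

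**Figure D5:**
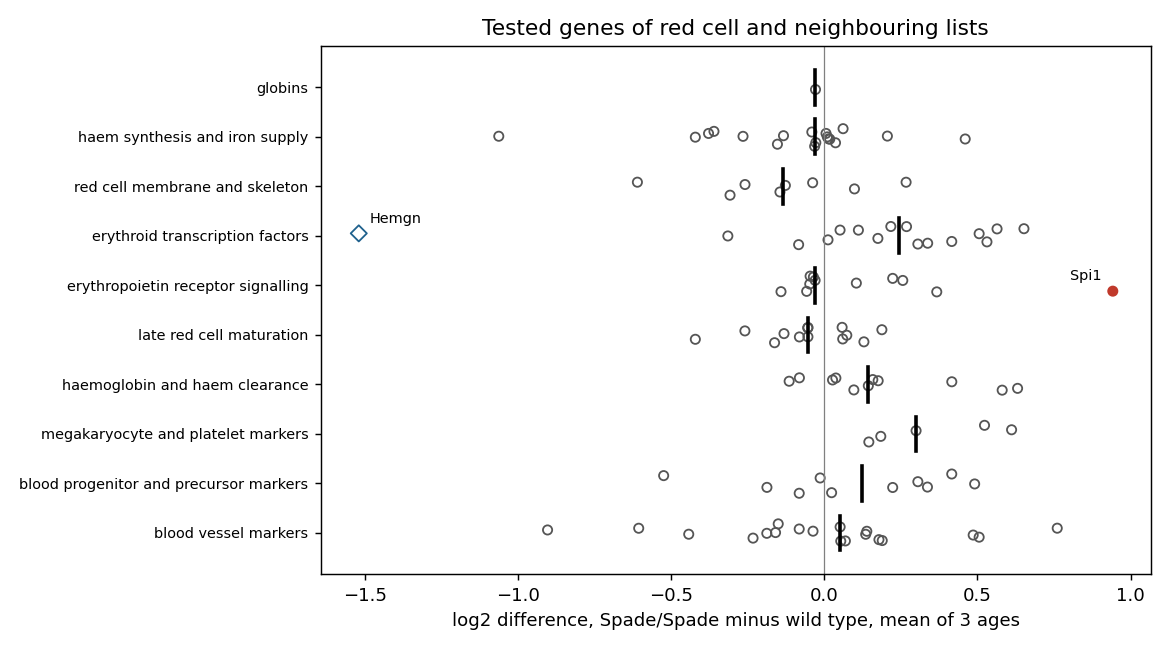
Log2 difference between Spade/Spade and wild-type ears averaged over 3 ages on the x axis, for the tested genes of each list on the y axis; the filled circle passed limma's adjusted p of 0.05, open circles did not, the blue diamond is Hemgn, which was chosen on these values, and bars are list medians. Hemgn lies at -1.52 and Spi1, the filled circle, at 0.94, and the medians lie between -0.14 and 0.30.

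The 8 tested genes with the pattern most like Hemgn by Pearson's r over 12 arrays were Olfml1 (0.925), Mfsd14b (0.907), Sptlc3 (0.906), Il34 (0.897), Cavin2 (0.894), Lce1m (0.879), Ttk (0.876) and Fmr1 (0.869). Alas2 ranked 930 of 11984, and the median gene had an r of 0.03. By Spearman's rho 6 of the 8 remained among the first 8, by deviations from group means 1 did and by MAS5 signals 3 did. On those deviations, r with Hemgn was 0.93 for Fmr1, 0.87 for Olfml1, between 0.52 and 0.74 for Il34, Mfsd14b, Cavin2, Sptlc3 and Ttk, and 0.29 for Lce1m. Alas2 stood at 0.80 on the deviations, rank 117, but at 0.31 on MAS5 signals, rank 2232. None of the 8 is in the 6 red cell lists, but these hold only 66 of the 11984 tested genes, so little can be read from this. The ranking over 12 arrays also includes the genotype difference by which Hemgn was chosen.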

How the data were processed

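Total RNA of whole ear was hybridised to 12 single-colour Affymetrix arrays. The log2 values are GCRMA values as deposited, which the authors normalized with the GCRMA package, per the series' design text. The intensity values are MAS5 signals as deposited by the authors per array, per the submitters' processing notes, and the same files hold detection calls. For log2 differences, MAS5 signals under 50 were raised to 50. Versions are not given in the sources used here. The series matrix equals the GCRMA values within 4.9999e-09.

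A gene was represented by its probe set of highest mean among those naming only that gene. The model, fitted by limma 3.58.1 (R 4.3.3), had a mean per group and 6 residual degrees of freedom. Variances were moderated with a trend on level, and calls were made at a Benjamini-Hochberg adjusted p under 0.05 over 11984 genes or, for probe sets naming several globin genes, 22289 probe sets. The steps were tested on simulated data. Figures and the rank product (1000 permutations) used Python 3.11.15. Folds of dim probe sets assume that the GCRMA level is not too low. Few arrays limit the precision.

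Members and lists were chosen with earlier results of these data known. Named genes are the members, up to 4 called and 2 uncalled genes per list by size, and the 8 genes most like Hemgn. Gata1, Klf1, Krt5, Krt14, Krt10, Krt71 and the embryonic globins were named after their values were seen. The shared globin probe sets, the same-range values, partner order on MAS5 the unfiltered fit of dim members and the block over 3 pairs were added after seeing the data. Alternatives covered MAS5 signals, scaling, filters, probe set choice, array range, replicate block, variance trend, call rule and each array left out.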

Additional observations from a re-analysis of the deposited data

Results flagged for a closer look

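The genotype difference of alpha-globin probe set 1428361_x_at, which names Hba-a1 and Hba-a2, was set apart because it turned direction between ages. Both mutants lay above both wild types at 6 weeks (13.64 and 13.08, against 12.88 and 13.03) and below them at 2 weeks (13.50 and 13.23, against 14.06 and 13.62) and 4 weeks (13.41 and 12.80, against 14.17 and 14.00). The difference at 6 weeks minus that at 2 weeks was 0.89 (limma adjusted p = 0.867), and minus that at 4 weeks 1.38 (adjusted p = 1), so neither passed. Of 22289 probe sets, 1.37% lay below at 4 weeks and above at 6 weeks without overlap.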

How the results depend on the processing

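Hemgn was lower in the mutant under every setting run, with an average difference from -1.67 to -0.93, the smallest on MAS5 signals (-0.99 at 2 weeks, -0.69 at 4 weeks and -1.13 at 6 weeks). Alas2 averaged -0.47 to -0.048 and passed in 0 of 22 settings (adjusted p 0.153 to 0.952). Leaving out 1 array moved the 6-week difference in GCRMA values between -0.073 and 0.33 for Alas2, which MAS5 called absent on all arrays of that age, between 0.13 and 0.68 for 1428361_x_at, -0.025 and 0.46 for 1417714_x_at, -0.071 and 0.58 for 1452757_s_at, and -0.17 and 0.61 for 1417184_s_at, with each negative value without 6-week mutant replicate 3. Spi1 stayed higher in 23 of 23 settings and was called in 15. The cause of these changes was not tested.

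Genes called on average numbered 77, and 119 on MAS5 signals, 24 with no filter, 48 with the mean of probe sets, 43 over all probe sets, 24 with array range as a block, 238 with the replicate block and 42 with a 2-fold minimum. At 2 weeks 0 were called by limma (972 at an unadjusted p under 0.05), 6 with no filter, 1 with no trend and 5 by rank product. At 4 weeks 0 were called (432 unadjusted), 10 with no filter and 15 by rank product. At 6 weeks 4 were called, and 32 on MAS5 signals, 2 with a filter at 6, 2 over all probe sets, 2 with the range block, 68 with the replicate block, 11 with only that age and 55 by rank product. Leaving out 1 array gave 2 to 1070 on average (1070 without 2-week mutant replicate 2; leaving out a 4-week mutant gave 166 for replicate 1 and 35 for replicate 2; a wild type or 6-week mutant left out gave 2 to 7), 0 to 1187 at 2 weeks (1187 without 2-week mutant replicate 2), 0 to 10 at 4 weeks and 0 to 44 at 6 weeks. The random replicate block joined arrays of the same age and number, with a correlation of 0.427. At each age 1 mutant and 1 wild type share a number. Their deviations from group means correlated at -0.12, 0.19 and 0.25 over genes at 2, 4 and 6 weeks. With 2 arrays per group these values cannot settle whether a shared number marks a pair, and the main fit does not pair the samples. A replicate block over these 3 pairs (6 arrays, 2 residual degrees of freedom), chosen after seeing the data, called 0 genes by limma (1305 at an unadjusted p under 0.05). It gave -1.10 for Hemgn, -0.048 for Alas2, 0.85 for Spi1 and -0.40 to -0.092 for the 4 globin probe sets.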
